A study of Mus musculus with 8 samples.

Results

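The solute carrier genes are the genes whose symbols begin with Slc, a family number and a letter, and they encode most of the membrane transporters that move amino acids, sugars, metals, vitamins and ions. In the authors' deposited table of genes that differed between Spp1 knockout and wild-type cultures, 69 of 3624 rows were solute carriers under this rule. The rule left out 3 further symbols, Slc6a20a, Slc6a13 and Slc22a8, genes known from the arachnoid barrier, which stood at 6.74, 6.73 and 5.10 on the log2 scale, higher in the knockout, in the authors' deposited table. The implied wild-type means of Slc6a20a and Slc6a13 were 0.89 and 0.66 normalized counts, so the fitted sizes of these genes rest on counts near 0. The RNA came from astrocytes grown in primary culture from retinas and optic nerves of mice at postnatal day 1 to 3, in 4 samples labelled wild type (strain C57BL/6) and 4 labelled Spp1-/- (strain B6.129S6(Cg)-Spp1tm1Blh/J). Spp1 encodes osteopontin, a secreted matrix phosphoprotein and cytokine. All cultures grew in DMEM/F12 with fetal bovine serum, and the labels name no transgene or added agent. Whether replicates were separate cultures or animals is not stated in the labels, nor are sex and litter, so the spread behind the deposited p-values is that between these samples and may be technical.

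Astrocytes depend on solute carriers for much of their work. They clear glutamate, GABA and glycine from the extracellular space with sodium-coupled carriers, trade cystine for glutamate to make glutathione, release lactate through monocarboxylate carriers and set extracellular pH and potassium with bicarbonate and chloride carriers. Other carriers sit in the membranes of lysosomes and of mitochondria, and macrophages hold a characteristic set of the lysosomal ones.

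The table held fold changes and no values per sample, so the value in each sample, the overlap of the groups and the depth of each sample are unknown. Each fold change below is knockout over wild type on the log2 scale with the standard error (SE) the authors deposited, and intervals are 95% normal intervals from that SE. The direction was read from Spp1, whose log2 fold change was -5.90 (SE 0.11), with implied means of 26271 in wild type and 441 in the knockout, in the authors' deposited table. The implied mean of a group is a normalized count worked out from the deposited mean over all samples and the fold change, with the groups taken as equal in size. The largest adjusted p in the table was 0.0499 and the smallest log2 fold change, in either direction, 0.58, so each gene in the table had already passed both limits. A solute carrier missing from the table was never read as unchanged.

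Other differences between the cultures moved with the genotype. Markers of microglia and macrophages were listed for 22 of 24 genes, all higher, with summed implied means of 43148 in wild type and 203040 in the knockout. Markers of arachnoid and meningeal fibroblasts were higher for 12 and lower for 1 of 16 genes, with sums of 9298 and 55200; that list holds the 3 genes left out by the rule. Listed markers of the oligodendrocyte lineage (13 of 15), neurons (10 of 16), Müller glia and retinal progenitors (8 of 12) and proliferating cells (9 of 12) were all lower. Markers of Schwann cells were lower for 9 and higher for 1 of 12 genes, and those of pericytes and smooth muscle lower for 3 of 10, with summed implied means of 90159 in wild type and 46932 in the knockout. Of 16 astrocyte markers, 5 were higher and 1 lower, while Slc1a2 and Slc1a3, the main glutamate carriers of astrocytes, were not listed. Of 8 Y-linked genes, 4 were listed, all higher, with summed implied means of 22.4 and 3517, so sex and genotype cannot be told apart. In these bulk samples fewer cells of a type and less RNA per cell cannot be told apart either. The part of these differences in the solute carrier values was not tested.

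More solute carriers were higher than lower in the knockout. Of the 69 listed, 48 were higher, or 69.6%, where 54.9% of all rows were higher, and 21 were lower, where 45.1% of all rows were lower. The median log2 fold change was 0.82 for the solute carriers and 0.66 for all rows. A rise of at least 1 was listed for 29 solute carriers, beside 35.5% of all rows, and a fall of at least 1 for 13, beside 22.5% of all rows. An adjusted p of at most 0.01 was deposited for 61 of the 69, beside 80.6% of all rows. The annotation holds 368 protein-coding genes under the same rule, of which 18.8% were in the table, beside 16.1% of all protein-coding genes. These shares describe the table and were not tested.

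**Figure D1:**
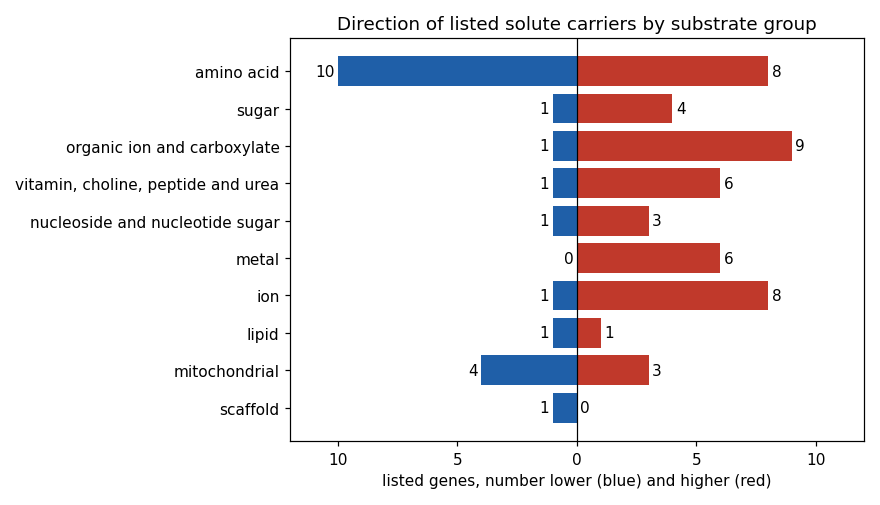
The horizontal axis counts listed solute carrier genes in each substrate group, lower in the knockout to the left in blue and higher to the right in red. Lower genes gather among the amino acid carriers (10 lower, 8 higher) and the mitochondrial carriers (4 lower, 3 higher), while all 6 metal carriers are higher.

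The substrate groups did not lean the same way. Amino acid carriers gave 8 higher and 10 lower, and their median was -0.86 on the log2 scale. Their summed implied mean was nevertheless larger in the knockout, at 34082 beside 22549 in wild type. The largest gains in count were those of Slc38a1 (5571 to 11496) and Slc7a2 (4288 to 7907). Such a sum weighs the genes with high counts most, and gene length is not accounted for. With a deposited mean of at least 100 they gave 7 higher and 7 lower. Changes of at least 1 in that group were 7 higher and 6 lower. Mitochondrial carriers gave 3 higher and 4 lower (median -0.62). The 6 metal carriers were all higher (median 1.16), as were 9 of 10 carriers of organic ions and carboxylates (median 1.35), 8 of 9 ion carriers (median 0.69), 6 of 7 carriers of vitamins, choline, peptides and urea (median 1.26), 4 of 5 sugar carriers (median 1.12) and 3 of 4 carriers of the nucleoside and nucleotide sugar families (median 0.79). The 2 fatty acid carriers split, and the scaffold protein gene Slc9a3r2, which shares the name but transports nothing, was lower. With groups this small the differences between them are given as counts, with no test.

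**Figure D2:**
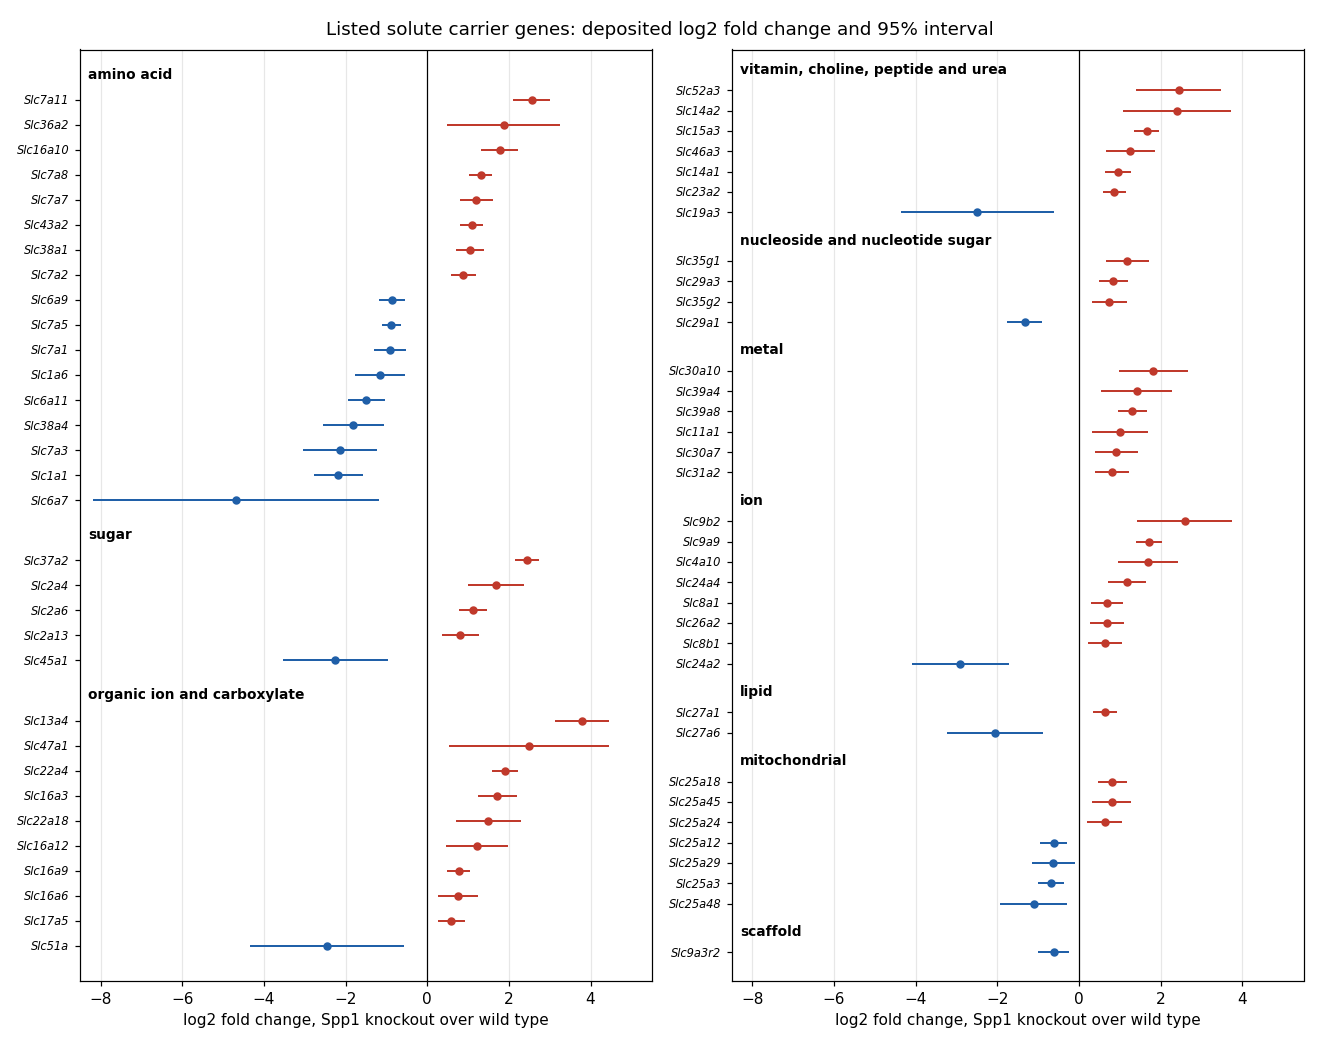
Each point is the deposited log2 fold change of a listed solute carrier, knockout over wild type, and each line its 95% interval; genes are sorted within substrate groups, red for higher and blue for lower, with 2 of the 69 not drawn. Slc13a4 at 3.80 is the highest point, and Slc6a7 at -4.68, with an interval from -8.16 to -1.20, is the lowest and least precise.

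Several carriers that take up neurotransmitters at the plasma membrane were lower in the knockout. Beside 45.1% of all rows that were lower and 16.1% of all protein-coding genes that were listed, the counts were as follows. Of 14 such genes, a list chosen after the values were seen and limited to genes under the rule, 6 were listed, 0 of them higher, and the median was -1.32 on the log2 scale. That list holds neither Slc6a13, a GABA carrier, nor Slc6a20a, a proline carrier, which the rule leaves out and which were higher, as given above. Summed over the 6 genes, the implied mean was 3168 normalized counts in wild type and 1606 in the knockout. Listed markers of neurons (10 of 10), the oligodendrocyte lineage (13 of 13) and Müller glia and retinal progenitors (8 of 8) were lower beside these carriers. The part of these cells in the change was not tested.

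A GABA carrier of astrocytes was among the lower genes. Slc6a11, the GABA transporter found mostly on astrocytes, went from an implied 222 in wild type to 79.2 in the knockout, a log2 fold change of -1.49 (SE 0.22, adjusted p = 5.72e-10) in the authors' deposited table. This is a 2.80-fold lower level, with an interval of 2.07 to 3.80. In GRCm38 it spans 114131241 to 114249952 of chromosome 6 (plus strand).

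The other listed genes of that list that are described here carry glycine, glutamate or proline. Slc6a9, the glial glycine transporter, stood at an implied 632 in wild type and 349 in the knockout, a log2 fold change of -0.86 (SE 0.15, adjusted p = 1.85e-07) in the authors' deposited table. Slc1a1, the glutamate and cysteine carrier of neurons, stood at 164 and 36.2, a log2 fold change of -2.18 (SE 0.30, adjusted p = 4.22e-12) in the authors' deposited table. Annotated exons of Slc1a1 overlap the listed gene 4430402I18Rik on the other strand over 31.9% of their length, and those of Slc6a9 overlap Ccdc24 over 27.8%; the sources used here do not say whether the counting used strand, and 4430402I18Rik is itself listed as lower. Slc1a6, a glutamate carrier best known from Purkinje cells, stood at 315 and 141, a log2 fold change of -1.15 (SE 0.30, adjusted p = 0.000985) in the authors' deposited table. Slc6a7, the proline carrier of neurons, had an implied mean of 5.02 in wild type and 0.20 in the knockout, so its fitted size rests on counts near 0 (adjusted p = 0.031 in the authors' deposited table).

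Among the 18 amino acid carriers kept by the rule, the cystine and glutamate exchanger showed the largest rise. Slc7a11, which imports cystine for glutathione synthesis, had an implied mean of 563 in wild type and 3310 in the knockout, a 5.88-fold higher level (95% interval 4.37 to 7.91). Its log2 fold change was 2.56 with SE 0.22 and an adjusted p of 6.68e-30 in the authors' deposited table. The gene lies on the minus strand of chromosome 3 at 49892526 to 50443614 in GRCm38. Slc3a2, which encodes the heavy subunit that carries the Slc7a11 and Slc7a5 proteins to the membrane, was not listed.

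Slc7a11 and other listed targets of the amino acid response moved in different directions. In that response the transcription factor ATF4 binds elements in the promoters of amino acid carriers and of enzymes of amino acid synthesis when amino acids are short. Of 10 carriers on the list of known targets, Slc7a11 and Slc38a1 were higher and Slc7a5, Slc7a1, Slc7a3 and Slc6a9 lower. Slc7a5, the light chain of the large neutral amino acid exchanger, had an implied mean of 4428 in wild type and 2399 in the knockout, a log2 fold change of -0.88 (SE 0.11, adjusted p = 1.79e-15) in the authors' deposited table. Slc7a1 and Slc7a3, carriers of arginine and lysine, had log2 fold changes of -0.90 (SE 0.19, adjusted p = 1.62e-05) and -2.13 (SE 0.45, adjusted p = 2.19e-05) in the authors' deposited table. Among 20 other genes of the response, 11 were lower and 1 higher, with a median of -0.89. Beside both counts, 45.1% of all rows were lower and 16.1% of all protein-coding genes were listed. The asparagine synthetase gene Asns stood at -0.93 (SE 0.14), the serine synthesis gene Phgdh at -0.90 (0.13), Shmt2 of folate metabolism at -0.83 (0.13) and the proline synthesis gene Pycr1 at -1.01 (0.19) in the authors' deposited table. Atf4 itself (-0.96, SE 0.25) and the higher gene, Atf3 (0.67, SE 0.20), are named from the authors' deposited table after their values were seen. Slc7a11 lay on the other side of 0 from Atf4 and from 4 of the other 5 listed carriers on that list. ATF4 protein was not measured, and the part of the response in these values was not tested.

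The promoters of the solute carriers were searched for the letters of the amino acid response element, since Slc7a11 is a textbook holder of it. Promoter sequences, taken from RefSeq on GRCm38.p6, were found for 49 of the 69 genes, and the 250 bases before each annotated start were read on both strands. The letters TGATGNAA were present for 3 of the 49, or 6.12%, and for 3.91% of all 27025 genes with a promoter. The 3 genes were Slc7a11, Slc7a7 and Slc9a9, each of which was higher, as were 34 of the 49 genes with a promoter. Slc7a1 and Slc6a9 held no match in this window, and no promoter sequence was matched to Slc7a5, Slc7a3 or Slc38a1. The stretches below show the matches in capitals and run 5′ to 3′ on the strand of the gene, from chr3:50443624-50443719 (minus strand) for Slc7a11, chr14:54417898-54417952 (minus strand) for Slc7a7 and chr9:94669783-94669870 (plus strand) for Slc9a9. They are shown because the Slc7a11 stretch holds 2 matches, on opposite strands, and the others because they are the remaining genes with a match. A link between the letters and direction was not tested.
Slc7a11: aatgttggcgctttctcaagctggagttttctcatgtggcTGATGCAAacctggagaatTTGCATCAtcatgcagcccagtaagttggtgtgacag
Slc7a7: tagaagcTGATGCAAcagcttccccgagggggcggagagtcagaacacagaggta
Slc9a9: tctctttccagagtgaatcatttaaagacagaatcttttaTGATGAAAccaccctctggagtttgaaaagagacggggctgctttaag

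The match is a description of letters, and binding was not measured. Slc7a7 holds another match, before a second annotated start. The antioxidant response element, for which Slc7a11 is also known, was searched as TGACNNNGC on both strands and was present for 10 of 49 genes, 4 higher and 6 lower, and for 11.5% of all genes, without a match for Slc7a11 in this window. The letters GAGGAAGT of the macrophage factor PU.1 were present for 1 of 49, Slc22a18, and for 2.79% of all genes.

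Other listed exchangers and facilitative carriers were higher. Slc7a8, an exchanger of neutral amino acids, had an implied mean of 775 in wild type and 1920 in the knockout, a log2 fold change of 1.31 (SE 0.13, adjusted p = 1.29e-20) in the authors' deposited table. Its neighbour Slc7a7, which exports arginine and lysine and is known from macrophages, stood at 105 and 242 (1.20, SE 0.20, adjusted p = 1.37e-08) in the authors' deposited table, with 304 kb between the genes on chromosome 14. Slc43a2, a facilitative carrier of large neutral amino acids, stood at 1789 and 3807 (1.09, SE 0.14, adjusted p = 2.13e-14) in the authors' deposited table. The aromatic amino acid carrier Slc16a10 stood at 150 and 513 (1.77, SE 0.22, adjusted p = 5.77e-15) in the authors' deposited table. Exchangers of the same substrates thus differed in direction, with Slc7a5 lower and Slc7a8 higher, and their intervals in fold were 1.60 to 2.13 downward and 2.06 to 2.97 upward.

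Cationic and sodium-coupled neutral amino acid carriers also split within families. Slc7a2, an arginine carrier, rose from an implied 4288 to 7907 (0.88, SE 0.15, adjusted p = 2.00e-08) in the authors' deposited table, while its paralogs Slc7a1 and Slc7a3 fell. Slc38a1, which takes up glutamine, rose from 5571 to 11496 (1.05, SE 0.16), while Slc38a4, 352 kb away on chromosome 15, fell from 109 to 31.1 (-1.81, SE 0.37), in the authors' deposited table. Slc36a2, a proton-coupled carrier of small amino acids, stood at 5.11 and 18.7 (1.87, SE 0.69) in the authors' deposited table. Outside the carriers, 2 of 16 genes of glutamate, glutamine and GABA metabolism were listed, Ggt1 and Ggt5, and both were higher. They encode enzymes that break down extracellular glutathione and related conjugates. Among all protein-coding genes 16.1% were listed, and 54.9% of all rows were higher.

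**Figure D3:**
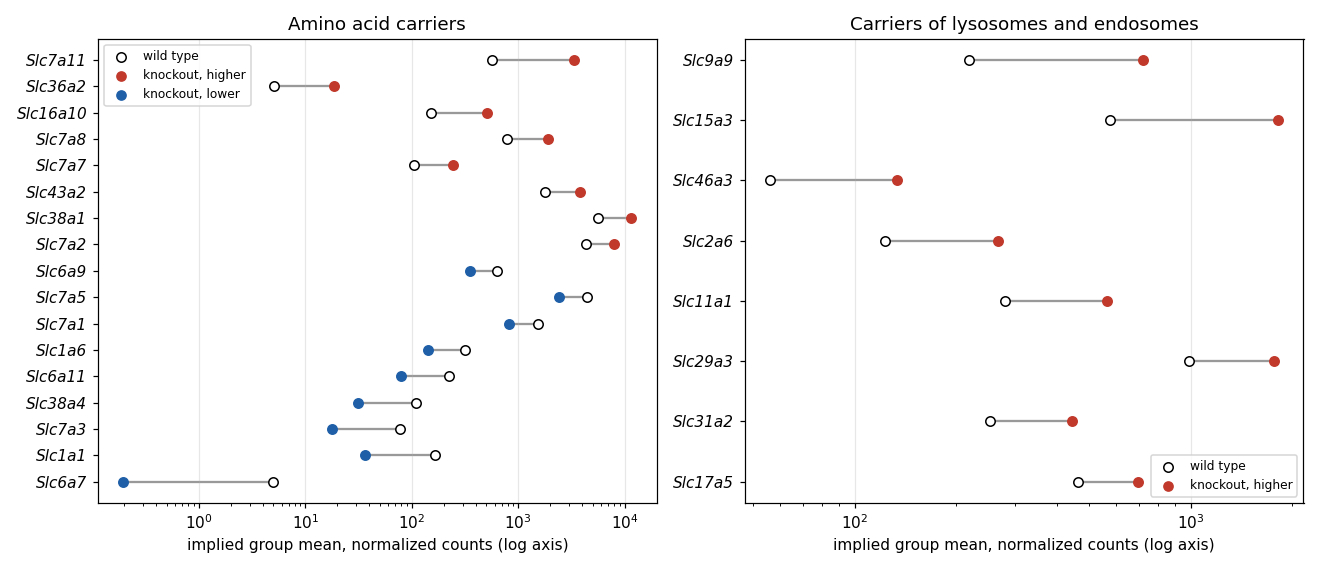
Implied group means in normalized counts, on a log axis, with wild type as open circles and the knockout as filled circles joined by a line; gene length is not accounted for, so only the pair within a row is to be compared. On the left, the amino acid carriers, 1 of them not drawn, run from Slc7a11, higher, to Slc6a7, lower. On the right, all 8 listed carriers of lysosomes and endosomes, from a list chosen after the values were seen, lie higher in the knockout.

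Listed carriers of lysosomes and endosomes were all higher. Of 21 such genes, a list chosen after the values were seen, 8 were listed all higher, and the median was 1.06 on the log2 scale. Beside this, 54.9% of all rows were higher and 16.1% of all protein-coding genes were listed. The summed implied means of the 8 genes were 2955 in wild type and 6415 in the knockout. Slc15a3, which carries histidine and small peptides out of endosomes and lysosomes, had an implied mean of 575 and 1821, a log2 fold change of 1.66 (SE 0.14, adjusted p = 1.53e-29) in the authors' deposited table. Slc9a9, a sodium and proton exchanger of recycling endosomes, stood at 219 and 721 (1.72, SE 0.15, adjusted p = 3.77e-29) in the authors' deposited table. The others were the glucose carrier family member Slc2a6, the folate family member Slc46a3, the metal carrier Slc11a1, the nucleoside carrier Slc29a3, the copper carrier family member Slc31a2 and the sialic acid exporter Slc17a5, with log2 fold changes from 0.59 to 1.26 in the authors' deposited table. Macrophage markers (22 listed, 22 higher) moved beside them, and 5 of these 8 genes are on the list of carriers known from macrophages; the part of macrophages was not tested.

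Carriers known from macrophages and microglia were higher. Of 10 on the list, 8 were listed, each of them higher (median 1.16), and Slc2a5 and Slc40a1 were not listed. Slc37a2, a sugar phosphate exchanger of the endoplasmic reticulum that is abundant in macrophages, had an implied mean of 584 in wild type and 3167 in the knockout, a 5.42-fold higher level (95% interval 4.52 to 6.51). It had the smallest adjusted p among the solute carriers, 1.14e-70, with a log2 fold change of 2.44 (SE 0.13) in the authors' deposited table, and was the only one among the 100 smallest of the table. Slc37a2 lies on the minus strand of chromosome 9 at 37227585 to 37255738 in GRCm38. Slc11a1, the divalent metal carrier of phagosomes, was less precisely measured, at 1.00 with SE 0.34 (adjusted p = 0.014) in the authors' deposited table. The sodium and calcium exchanger Slc8a1 stood at 1291 and 2086 (0.69, SE 0.19, adjusted p = 0.00128) and Slc46a3 at 56.1 and 134 (1.26, SE 0.29, adjusted p = 0.000142) in the authors' deposited table. Without the carriers on the macrophage list, 40 of 61 solute carriers were higher, or 65.6%, beside the 54.9% of all rows. All rows still include the macrophage genes, and the list need not hold every carrier that macrophages express. The 2 shares therefore do not measure the part of macrophages, which was not tested.

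Sugar carriers were mostly higher. Slc2a4, the insulin-responsive glucose transporter of muscle and fat, had an implied mean of 60.2 in wild type and 195 in the knockout, a log2 fold change of 1.70 (SE 0.34, adjusted p = 5.35e-06) in the authors' deposited table. Slc2a6 stood at 123 and 267 (1.12, SE 0.16, adjusted p = 2.48e-10) and Slc2a13, which carries myo-inositol with protons, at 184 and 325 (0.82, SE 0.22) in the authors' deposited table. Slc45a1, a proton-coupled glucose carrier of brain, was the lower one, at 54.4 and 11.4 (-2.26, SE 0.64) in the authors' deposited table. Slc2a1, the glucose transporter of the blood-brain barrier and of astrocytes, was not listed. Of 21 genes of glycolysis and lactate handling 3 were listed, and Hk3, Aldoc and Pdk1 were all higher. Beside this, 16.1% of all protein-coding genes were listed and 54.9% of all rows were higher. Aldoc is also on the list of astrocyte markers.

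All 5 listed genes of the Slc16 family were higher, beside 54.9% of all rows. The family is named for monocarboxylate carriers, but Slc16a10 and Slc16a12 carry aromatic amino acids and creatine. Slc16a3, which exports lactate from glycolytic cells, had an implied mean of 239 in wild type and 789 in the knockout, a log2 fold change of 1.72 (SE 0.23, adjusted p = 1.55e-12) in the authors' deposited table. Slc16a9 stood at 462 and 788 (0.77, SE 0.13, adjusted p = 7.64e-08), Slc16a6 at 272 and 459 (0.75, SE 0.24) and the creatine carrier Slc16a12 at 31.2 and 72.3 (1.21, SE 0.38) in the authors' deposited table. Slc16a1, the lactate carrier of astrocytes and oligodendrocytes, was not listed. Slc16a10 is the fifth and is described with the amino acid carriers.

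The largest rise among the 69 genes was that of a sulfate carrier, though the 3 genes left out by the rule had larger ones. Slc13a4, a sulfate carrier of placenta, choroid plexus and meninges, had an implied mean of 22.7 in wild type and 316 in the knockout, a 13.9-fold higher level (95% interval 8.92 to 21.7). Its log2 fold change was 3.80 (SE 0.33, adjusted p = 2.10e-29) in the authors' deposited table, and the gene lies on the minus strand of chromosome 6 at 35267957 to 35308131. Slc22a4, the ergothioneine and carnitine carrier, stood at 243 and 910 (1.90, SE 0.15, adjusted p = 1.59e-34) in the authors' deposited table. Slc22a18, an imprinted gene of the organic cation family, stood at 36.3 and 102 (1.49, SE 0.39), and Slc47a1, which exports organic cations, at 3.14 and 17.7 (2.49, SE 0.99, adjusted p = 0.040) in the authors' deposited table. Slc51a, a subunit of a steroid and bile acid exporter, was lower, at 10.2 and 1.87 (-2.45, SE 0.95) in the authors' deposited table. Of 10 carriers known from the arachnoid barrier and choroid plexus, 6 were listed, all higher, and 3 of the 6 are the genes that the rule leaves out. Beside this, 16.1% of all protein-coding genes were listed and 54.9% of all rows were higher. The fibroblast and arachnoid markers given above (12 of 13 listed higher) moved beside Slc13a4, Slc16a12 and Slc47a1, and their part was not tested.

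Vitamin, peptide and urea carriers were higher but for the thiamine carrier. Slc23a2, which takes up ascorbate, had an implied mean of 1543 in wild type and 2819 in the knockout, a log2 fold change of 0.87 (SE 0.13, adjusted p = 2.59e-10) in the authors' deposited table. Both urea carriers were listed, Slc14a1, known from astrocytes, at 922 and 1783 (0.95, SE 0.15, adjusted p = 1.45e-09) and its neighbour Slc14a2 at 4.54 and 23.96 (2.40, SE 0.67) in the authors' deposited table. The riboflavin carrier Slc52a3 stood at 6.65 and 36.04 (2.44, SE 0.52, adjusted p = 3.02e-05) and the thiamine carrier Slc19a3 at 17.1 and 3.05 (-2.49, SE 0.94, adjusted p = 0.031) in the authors' deposited table. The genes Slc14a2, Slc52a3 and Slc19a3 all had deposited means below 100, where standard errors are wide.

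Metal carriers were the one group of more than 2 listed genes in which all were higher. Slc39a8, which imports zinc and manganese, had an implied mean of 107 in wild type and 267 in the knockout, a log2 fold change of 1.31 (SE 0.17, adjusted p = 2.14e-13) in the authors' deposited table. Slc30a10, which exports manganese, stood at 21.9 and 77.6 (1.82, SE 0.42, adjusted p = 1.2e-04), and Slc39a4, a zinc importer, at 19.3 and 51.4 (1.41, SE 0.43) in the authors' deposited table. Slc30a7, which loads zinc into the Golgi, stood at 1040 and 1961 (0.91, SE 0.26) and Slc31a2, of the copper family, at 253 and 444 (0.81, SE 0.20, adjusted p = 2.7e-04) in the authors' deposited table. Among 26 other genes of iron, zinc, copper and manganese handling, 11 were higher and 3 lower, with a median of 1.00. Of all rows 54.9% were higher, and 16.1% of all protein-coding genes were listed. The siderophore-binding gene Lcn2, the metalloreductase genes Steap3 and Steap4 and the ferritin heavy chain gene Fth1 stood at 3.33, 1.81, 2.96 and 1.16 in the authors' deposited table. The 3 lower genes, named after their values were seen, were Atp7b, Heph and Steap1. The iron exporter Slc40a1 and the metallothionein genes Mt1 and Mt2 were not listed.

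Ion carriers were higher in 8 of 9 cases, and 4 of the 8 rose by at least 1 on the log2 scale. Slc4a10, a sodium-dependent bicarbonate transporter of neurons and choroid plexus, had an implied mean of 98.2 in wild type and 317 in the knockout, a log2 fold change of 1.69 (SE 0.36, adjusted p = 2.70e-05) in the authors' deposited table. Calcium exchangers divided, with Slc24a4 at 1.17 (SE 0.23, adjusted p = 3.05e-06), Slc8a1 at 0.69 (0.19) and the mitochondrial exchanger gene Slc8b1 at 0.64 (0.20), against Slc24a2, a neuronal one, at -2.91 (SE 0.59, adjusted p = 9.73e-06), in the authors' deposited table. Slc24a2 had implied means of 48.2 and 6.43. The sulfate carrier Slc26a2 stood at 633 and 1021 (0.69, SE 0.21) and Slc9b2, a sodium and proton exchanger, at 10.1 and 60.5 (2.59, SE 0.58) in the authors' deposited table. Among 24 genes of the sodium pump, its regulators and carbonic anhydrases, 4 were higher and 3 lower, with the pump regulator Fxyd7 at -3.56 (SE 0.50) in the authors' deposited table.

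The 2 listed nucleoside carriers differed in direction. Slc29a1, the equilibrative nucleoside carrier of the plasma membrane, fell from an implied 1414 to 563, a log2 fold change of -1.33 (SE 0.21, adjusted p = 2.62e-09) in the authors' deposited table. Slc29a3, its lysosomal relative, rose from 986 to 1769 (0.84, SE 0.17, adjusted p = 7.38e-06) in the authors' deposited table. Slc35g1 and Slc35g2, members of the nucleotide sugar family, stood at 1.18 (SE 0.25) and 0.74 (SE 0.21) in the authors' deposited table. Of 15 nucleoside and nucleotide enzymes, 3 that act at the cell surface (Entpd1, Entpd2 and Nt5e) were higher, and 4 were lower, with the uridine kinase gene Uck2 at -1.12 (SE 0.16) in the authors' deposited table.

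Listed mitochondrial carriers differed by less than most other solute carriers, with a median size of 0.68 on the log2 scale in either direction beside 1.18 for all 69. Of these 7 carriers, 6 had a deposited mean of at least 100, and the 50 solute carriers at that level had a median size of 0.91. Slc25a3, the phosphate carrier that supplies ATP synthesis, had an implied mean of 8518 in wild type and 5328 in the knockout, a log2 fold change of -0.68 (SE 0.15, adjusted p = 7.36e-05) in the authors' deposited table. Slc25a12, the aspartate and glutamate carrier of the malate shuttle, stood at 1657 and 1080 (-0.62, SE 0.15), and the astrocyte glutamate carrier Slc25a18 at 1660 and 2934 (0.82, SE 0.16, adjusted p = 6.33e-06) in the authors' deposited table. The ATP-magnesium and phosphate carrier Slc25a24 stood at 0.63 (SE 0.21), Slc25a45 at 0.80 (0.23), the basic amino acid carrier Slc25a29 at -0.63 (0.25) and Slc25a48 at -1.11 (0.40) in the authors' deposited table. Of 21 partner proteins of the mitochondrial membranes, 2 were higher (Ucp2 and Sfxn5) and 2 lower (Vdac1 and Timm10). The fatty acid carriers Slc27a1, known from astrocytes, and Slc27a6 stood at 0.64 (SE 0.13, adjusted p = 2.20e-05) and -2.05 (SE 0.59, adjusted p = 0.0028) in the authors' deposited table.

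Solute carriers known from astrocytes gave 4 higher and 3 lower of 16. The higher ones were Slc7a11, Slc14a1, Slc25a18 and Slc27a1, and the lower ones included Slc6a9 and Slc6a11, all described above. On the list known from neurons, 3 were lower (Slc1a1, Slc24a2 and Slc6a7) and 1 higher (Slc4a10) of 20. From brain endothelium 3 were lower (Slc7a5, Slc7a1 and Slc19a3) and 1 higher (Slc52a3) of 8, beside endothelial markers of which 3 were lower and 2 higher of 12. From pigment cells Slc24a4 alone was listed of 5, beside markers of pigment epithelium and melanocytes of which 3 were higher and 2 lower of 12. The part of these cells was not tested.

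**Figure D4:**
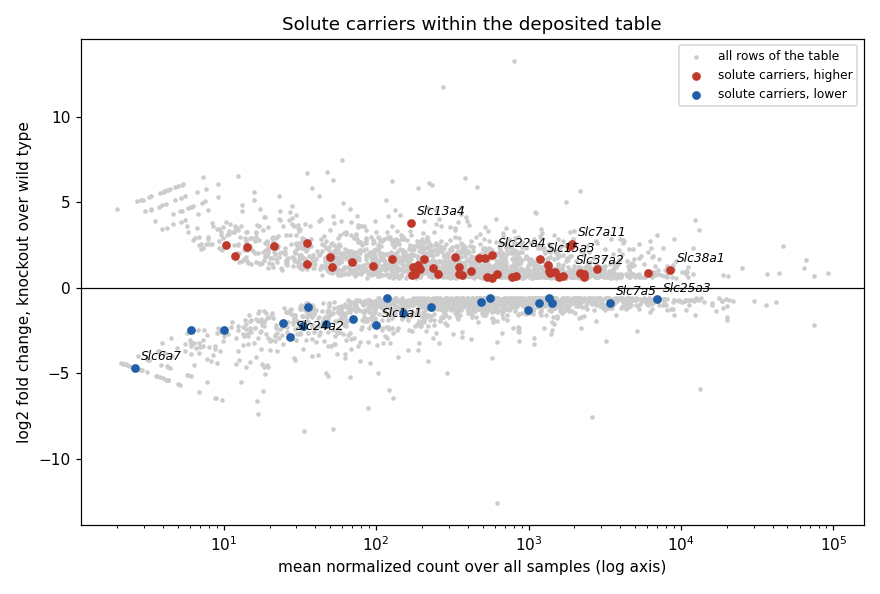
Each grey point is a row of the table, by its mean normalized count over all samples on a log axis and its log2 fold change; solute carriers are red where higher and blue where lower. The empty band around 0 is the fold-change limit of the table. Below a mean of 100 the solute carriers split 10 higher to 9 lower, against 38 to 12 above it. Of all rows, 55.8% were higher below 100 and 54.6% above it.

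The share of listed solute carriers that were higher differed with their level, a difference that was not tested. Among the 50 with a deposited mean of at least 100, 38 were higher, or 76%, while among all rows at that level 54.6% were higher. Among the 19 below 100, 10 were higher (52.6%) and 9 lower, close to all rows below 100, of which 55.8% were higher. The median absolute log2 fold change of the 19 was 2.13, where that of all rows below 100 was 2.14. Per kilobase of annotated exon, the highest implied level in wild type belonged to Slc25a3, at 1535 normalized counts per kb, then Slc7a5 at 1194 and Slc25a18 at 868. In the knockout Slc25a18 came first at 1535 per kb, followed by Slc25a3 at 960 and Slc7a2 at 866. Of the 69 genes, 1 lies on the X chromosome (Slc7a3), 0 on the Y chromosome and 0 within 10 Mb of Spp1. Closest to the limits of the table were Slc17a5, with a log2 fold change of 0.59 (SE 0.15), and Slc25a29, with an adjusted p of 0.045, in the authors' deposited table; genes just outside the limits are not analysed here.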

How the data were processed

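Total RNA of 8 samples was sequenced, 4 per genotype. Tools listed, without roles, in the submitters' processing notes are STAR 2.7, DESeq2 1.30.1 and CASAVA 1.8, with the build GRCm38; how reads were counted, and how the table was filtered, is not given in those notes or in the labels. Per the file headers, the authors deposited 1 row per gene with its mean normalized count (a depth-scaled signal averaged over samples), a log2 fold change and its SE, a Wald statistic (a score without fixed range, equal to the ratio of the last 2 to within 1.51e-07), and raw and adjusted p-values. The adjustment of the p-values corresponds to about 16600 tested genes. The table has 0 columns per sample, so no count model was fitted and the planned count test was not used. The rule for implied means was checked only for its algebra, on group means set in advance without counting noise. How well it holds for fitted fold changes of genes with counts near 0 was not tested. Coordinates and exon lengths come from GENCODE M21 (69 of 69 solute carriers matched by symbol). Python 3.11.15 with pandas 2.3.3 was used. Substrate groups follow family numbers with a few reassigned genes (such as Slc16a10). All solute carriers may be named by the naming rule; full statistics follow the smallest adjusted p of each group, the cell type lists and the largest changes, and pathway lists name up to 4 genes by adjusted p. Members and lists were chosen with earlier results of these data known. Results for a few genes are not reported here, though the counts and medians include them.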

Additional observations from a re-analysis of the deposited data

How the results depend on the processing

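The 4 overall values (higher and lower counts, share higher, median log2 fold change) were recomputed under 9 alternatives, and 32 of 36 stayed within a set tolerance. The tolerance was 1.5 times for a count, 57.3% to 80.1% for the share and 1 median SE (0.22) for the median. The range for the share is a binomial one that takes genes as independent, so it served as a tolerance and not as a test. Most alternatives kept nearly the same genes, such as 67, 68 or 72 beside 69. Their agreement was therefore largely fixed in advance and is no independent check. With a deposited mean of at least 100 the lower count was 12 in place of 21. Among changes of 1 or more on the log2 scale there were 29 higher and 13 lower, with a median of 1.23. The share higher ranged from 65.6% without the carriers of the macrophage list to 76% at a mean of at least 100, and was 70.8% with Slc6a20a, Slc6a13 and Slc22a8 put back. No paired analysis was possible because the table holds no values per sample, and for the same reason no replicate could be left out. The depth of each sample is unknown.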

Other observations

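The organic anion carriers of the Slco family, which fall outside the rule, were listed for 8 of 14 annotated genes, 5 higher and 3 lower. Slco1c1, a thyroid hormone carrier of brain endothelium and astrocytes, had an implied mean of 2106 in wild type and 419 in the knockout, a log2 fold change of -2.33 (SE 0.14) in the authors' deposited table. Slco2b1 and Slco4a1 stood at 1.55 (SE 0.19) and 2.03 (SE 0.41), and Slco1a4, a carrier of the blood-brain barrier, at 0.78 (SE 0.16), in the authors' deposited table.

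Among the 69 solute carriers, 7 pairs of genes lie within 1 Mb of each other, and 4 of these pairs have the same direction. Annotated exons of 16 of the 69 overlap those of another gene. The overlap covers 28.1% of the exon length of Slc15a3 (with Tmem132a), 21.5% of Slc16a6 (with Amz2) and 17.7% of Slc51a (with Pcyt1a), all on the other strand and none of them in the table.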
